A study of Macaca mulatta with 5 samples.

Results

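Epithelial (c23) is a cluster of cells from fetal rhesus macaque kidney that the study named as epithelium without placing it in a segment of the nephron or the collecting duct. Its members were taken by the study's own cluster name, and they numbered 596 of the 36039 cells in 5 libraries. The kidneys were cortex-enriched and came from the late second and the third trimester, when the rhesus kidney still forms nephrons. For libraries 600 and 628, cortical tissue of 2 donor kidneys was hand-dissected and digested with cold-active enzymes. In libraries 623, 627 and 632 kidney was vortexed in a cold Bacillus licheniformis mix, which gives a suspension biased towards the cortex. All 5 libraries were made with 10x Genomics 3' chemistry, and no treatment or genotype separated them. The labels do not give the age of each animal or say that all libraries came from separate animals. Cells of human origin were not analysed here, so the balance of c23 between species is not given.

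Kidney epithelium has more than one origin. Nephron progenitors of the cap mesenchyme, which are mesenchymal cells, turn into epithelium and form the podocytes, the proximal tubule, the loop of Henle and the distal tubule, while the collecting duct grows from the branching ureteric bud. The interstitium around them holds fibroblasts and other stromal cells, which are a separate lineage. Epithelial cells are usually recognised by EPCAM, a cell adhesion molecule of epithelia, and KRT18, a keratin of simple epithelia. The deposited table holds 0 columns of gene values, so neither marker could be checked in c23 and the epithelial name rests on the study alone. Cell numbers, shares and positions in the study's embedding are therefore the measurements reported. Sequencing depth is unknown, and the sources used here do not say how doublets were treated.

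The cluster was found in every library at a similar share. Library 600 held 118 c23 cells, or 1.73% of its cells (exact 95% binomial interval, 1.43 to 2.06). Library 628 held 135, or 2.13% (1.79 to 2.52). Both are dissected libraries, and 628 had the highest share of the 5. Among the vortexed libraries, 623 held 139 c23 cells, or 1.42% (1.19 to 1.67). Library 627 held 164, or 1.56% (1.33 to 1.82), and library 632, the smallest, held 40, or 1.57% (1.12 to 2.13). The interval of library 628 lay above that of 623 and overlapped those of the other 3 libraries. Binomial intervals cover counting error only.

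**Figure D1:**
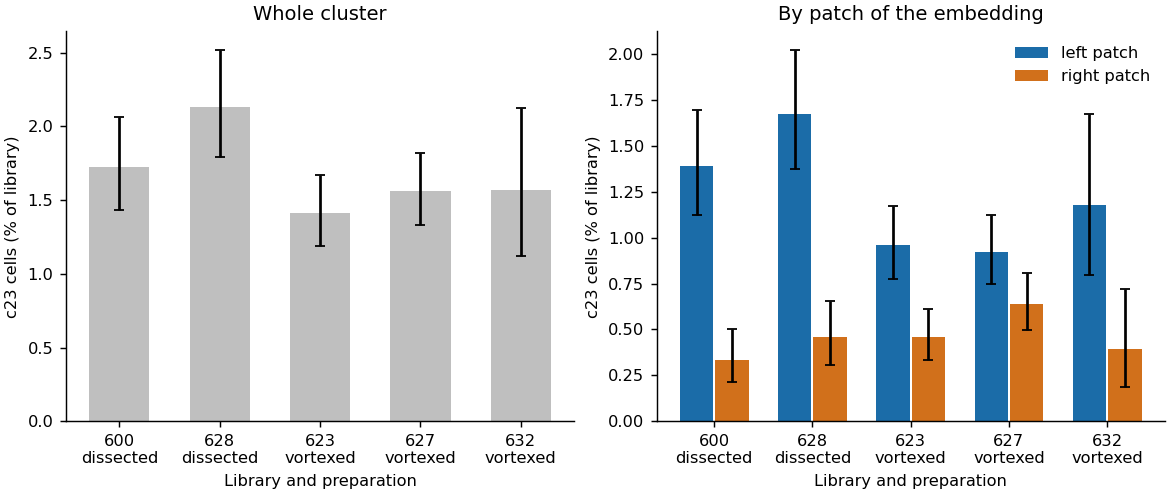
Share of c23 among the cells of each library, in percent, for the whole cluster (left panel) and for the patches of c23 cells on the left and right of the embedding (right panel), with exact 95% binomial intervals as error bars. The whole cluster lies between 1.42% and 2.13%, while the left patch ranges from 0.924% to 1.67% and the right patch from 0.336% to 0.638%.

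Across libraries the mean share was 1.68% ± 0.276 (SD, n = 5), and the most extreme libraries differed 1.51-fold. The coefficient of variation, the SD as a percentage of the mean, was 16.4%. This was the lowest value among the 37 clusters of the study. The next lowest were 25.8% for Broad proximal diff (c17), cells named for proximal differentiation, and 25.99% for Proximal tubule (c8). The median over the 37 clusters was 65.9% and the highest value was 151%. These values are a description, since c23 has no prior share to be tested against. The order also depended on single libraries: with library 600, 623, 627 or 632 left out, c23 had the second lowest coefficient of variation, and a different cluster was lowest each time. Without library 628 the c23 value was 8.06%, again the lowest of the 37.

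The spread of the share was not far above counting error. The SD of the c23 share over libraries was 1.61 times the SD expected from counting, which was 0.171 percentage points. The corresponding median over the 37 clusters was 5.23. Only 2 clusters had a lower ratio, B cell (c31) at 0.683 and Endothelial cell (c1) at 1.59, and both are rare, so that counting error is large beside their share.

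**Figure D2:**
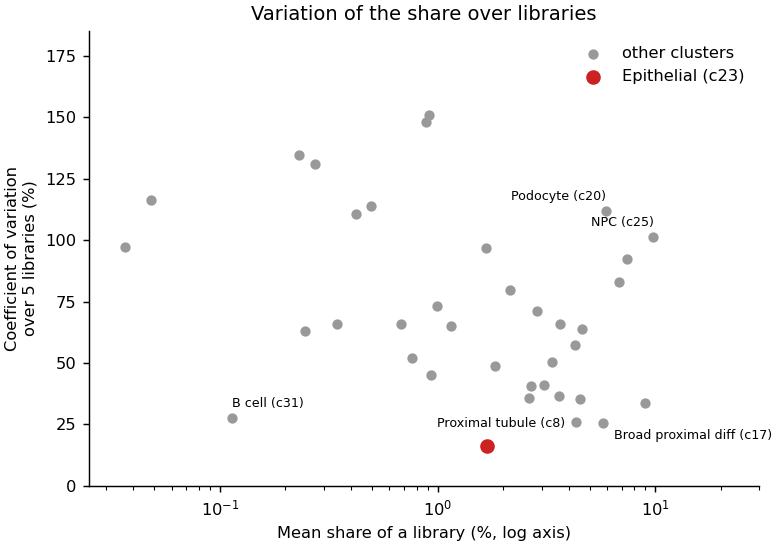
Coefficient of variation of the share over the 5 libraries, in percent, against the mean share on a log axis, with a point for each of the 37 clusters. The c23 point is the lowest, at 16.4%, with Broad proximal diff (c17) at 25.8% and Proximal tubule (c8) at 25.99% next.

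The choice of denominator changed how steady the share looked. Epithelial names were those of early nephron, podocyte, tubule, collecting duct and c23. The early nephron names were Broad proximal diff (c17) and Differentiated NPC (c14 and c19). Among cells with an epithelial name, c23 made up 2.21% in library 600, 4.23% in library 628, 3.68% in library 623, 4.26% in library 627 and 3.22% in library 632. The mean was 3.52% ± 0.848 (SD, n = 5), with a coefficient of variation of 24.1%. Library 600 was then the lowest of the 5 instead of the second highest, and c23 had the second lowest coefficient of variation of 15 clusters, after Distal convoluted tubule (c10) at 22.3%. Among cells outside the clusters named by cell cycle phase, the mean was 1.96% ± 0.350 and the coefficient of variation 17.9%, the lowest of 34 clusters.

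The number of c23 cells did not keep a fixed ratio to the clusters that lay nearest to it. There were between 0.126 and 0.367 c23 cells for each Proximal tubule (c18) cell, a 2.91-fold range over libraries. The ratio to Interstitial Cell Lineages (c24) ran from 0.372 to 0.871, a 2.34-fold range, and that to Fibroblast (c26) from 0.215 to 1.27, a 5.91-fold range. The ratio to NPC (c25), a cluster named for nephron progenitor cells, varied 39.7-fold. Each of these ranges was wider than the 1.51-fold range of the c23 share itself, but the other clusters also varied more than c23. Their own shares ranged 2.13-fold for c18, 2.40-fold for c24, 5.35-fold for c26 and 32.6-fold for c25. The ratio to c24 thus ranged slightly less than c24 itself, and the other ratios somewhat more than their clusters.

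In the study's embedding, a two-dimensional layout in arbitrary units, c23 did not form a single patch. A left patch held 422 cells, 70.8% of the cluster, with its centre (median) at -3.32 on the horizontal and -0.055 on the vertical axis. A right patch held 174 cells, 29.2%, with its centre at 4.43 and 0.61. Between -0.25 and 2.02 on the horizontal axis there was no c23 cell. The stretch was not empty of other cells: at the heights where c23 lies, from its 5th to its 95th percentile, it held 1732 cells of other names. Of these, 41.3% were G2-M phase (c29), 22.7% M-phase (c27), 19.5% G2-M phase (c28) and 9.76% Cap mesenchyme (c30). The boundary between the patches was set at 1 after the positions had been seen, so the patches are described without a test.

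**Figure D3:**
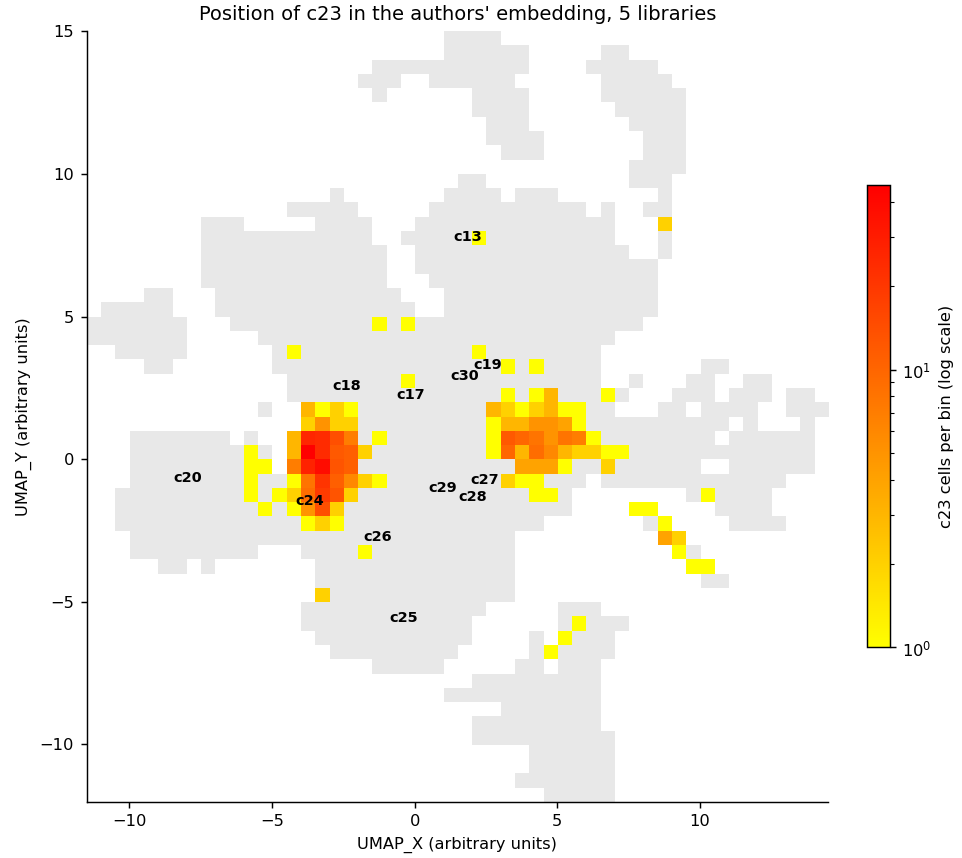
Position of c23 in the study's embedding, with both axes in arbitrary units and cells counted in square bins of side 0.5. Grey bins hold cells of any name, coloured bins hold c23 cells (log scale), and cluster numbers mark the median position of other clusters. A dense patch of 422 c23 cells lies on the left beside c24 and c18, and a looser patch of 174 cells lies on the right beyond the phase-named clusters c27, c28 and c29.

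The patches differed in density. The median distance of a cell to the centre of its own patch was 0.795 units on the left and 1.11 on the right. The 90th percentile of this distance lay at 1.61 on the left and at 4.55 on the right, where 16 cells lay beyond 7 on the horizontal axis and 3 lay below -5 on the vertical axis. In bins of side 0.5, c23 made up 25.95% of the cells in the 57 bins that held any c23 cell on the left, and 3.37% in the 63 such bins on the right. On the left 20 bins held mostly c23 cells, and on the right 0 did. Measured over the cluster, 29.5% of c23 cells lay more than 5 units from the c23 centre, the fifth highest value of 37 clusters. Proximal tubule (c6) at 53.1%, Fibroblast (c26) at 40.6%, Interstitial cell lineages (c22) at 37.8% and Interstitial Cell Lineages (c24) at 29.8% had higher values. This measure does not tell a cluster in separate pieces from a broad one, and whether other clusters form separate patches was not tested.

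The right patch took up between 19.5% and 40.9% of c23, depending on the library. It held 23 of 118 c23 cells in library 600, or 19.5% (exact 95% interval, 12.8 to 27.8). It held 29 of 135 in library 628, or 21.5% (14.9 to 29.4). Both dissected libraries thus divided their c23 cells between the patches in about the same way. In the vortexed libraries it held 45 of 139 cells in library 623, or 32.4% (24.7 to 40.8), and 67 of 164 in library 627, or 40.9% (33.3 to 48.8). In library 632 it held 10 of 40, or 25% (12.7 to 41.2), an interval that includes the values of the other 4 libraries.

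As a share of all cells of a library, each patch had a higher coefficient of variation than the cluster they make up. The left patch made up 1.39% of library 600, 1.67% of library 628, 0.958% of library 623, 0.924% of library 627 and 1.18% of library 632, with a mean of 1.22% ± 0.314 (SD, n = 5) and a coefficient of variation of 25.6%. The right patch made up 0.336%, 0.458%, 0.458%, 0.638% and 0.392% in the same order, with a mean of 0.457% ± 0.114 and a coefficient of variation of 24.9%. Library 627 had the lowest share of the left patch and the highest share of the right patch. The spread of the left patch over libraries was 2.12 times its counting error, and that of the right patch 1.30 times. For the whole cluster it was 1.61 times. The lower ratio of the right patch does not make it steadier, since counting error is larger beside the share of fewer cells. Library 627 also had the largest share of cells named by cell cycle phase, 27.9% of its cells other than c23, against 5.09% to 16.2% in the other libraries, and the part of this in the larger right patch was not tested.

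Left-patch cells mostly lay among other c23 cells. Among the 15 cells nearest to each in its own library, whatever their name, c23 made up 77.6% in library 600, 80.6% in library 628, 73.7% in library 623, 58.8% in library 627 and 65.3% in library 632. In the right patch the values in the same order were 1.45%, 3.91%, 9.33%, 3.78% and 2%. In every library the left value was the higher, but the patches were drawn from these same positions. Patch size also limits the value: library 632 had 10 right cells, too few to fill 15 neighbours with c23. Most of the 15 nearest cells were c23 for 317 of 422 left cells (75.1%) and for 0 of 174 right cells, and 106 of the right cells (60.9%) had no c23 cell among them. Over the whole cluster the own-name share was 53.1% ± 11.3 (SD, n = 5), which ranked 16th of the 34 clusters that had at least 20 cells in at least 1 library. This share also depends on how many cells a cluster or patch has.

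**Figure D4:**
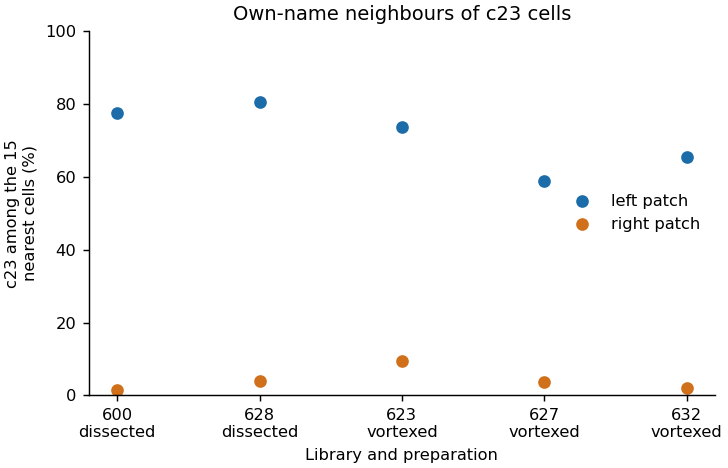
Share of c23 among the 15 nearest cells of the same library, in percent, for c23 cells of the left and right patches in each of the 5 libraries. Left-patch values lie between 58.8% and 80.6% and right-patch values between 1.45% and 9.33%.

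Names other than c23 around the left patch were few. Neighbours were counted as the 15 differently named cells nearest to each c23 cell in its own library, leaving out clusters named by cell cycle phase, and are set beside the share of the same name among all such reference cells. Proximal tubule (c18), from the segment that reabsorbs most of the filtrate, made up 42.8% ± 12.3 of them (SD, n = 5) against 10.8% of reference cells. It ranged from 42.8% to 51.6% in libraries 600, 628, 623 and 632 and was 21.8% in library 627. Interstitial Cell Lineages (c24) made up 25.7% ± 8.94 against 3.21%, with a range of 12.3% in library 623 to 34.8% in library 627. Fibroblast (c26), a stromal name, made up 15.97% ± 4.75 against 5.34%. These 3 names exceeded their reference share in 5 of 5 libraries.

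NPC (c25) was the fourth name around the left patch, at 14.1% ± 10.99 against 12.1% of reference cells. Its neighbour share was 1.96% in library 600 against 0.819% of reference cells there, 9.87% against 15.98% in library 628, 30.4% against 30.005% in library 623, 19.2% against 12.4% in library 627 and 8.89% against 1.26% in library 632. It thus exceeded its reference share in 4 of 5 libraries, by very little in library 623 and most in library 632. Collecting duct, endothelial and immune names made up 0% of the neighbours of the left patch in each of the 5 libraries, and early nephron names 0.492%, against 15.3% of reference cells. By single cells, c18 was the most frequent neighbouring name for 194 of the 422 left cells, c24 for 134, c25 for 42 and c26 for 26, with 18 ties.

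The left patch therefore bordered on tubule and stroma alike. Tubule names made up 43.0% ± 12.0 of its neighbours and stromal names 41.6% ± 12.6, against 27.8% and 21.5% of reference cells. Stroma exceeded its reference share in 5 of 5 libraries and tubule in 4 of 5. In library 627 the neighbours were 57.0% stroma and 22.4% tubule, below the 27.2% of tubule names among its reference cells. In library 632 they were 39.6% stroma and 51.6% tubule, and in library 628 38.6% and 51.3%. The main stromal names here had a lower own-name share than c18, at 42.7% for c24 and 30.1% for c26, against 65.7% for c18. This share also depends on cell number, and c18 had 3178 cells, against 1000 for c24 and 1779 for c26.

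Many names surrounded the right patch. Fibroblast (c26) made up 13.2% ± 2.77 of its neighbours (SD, n = 5), against 5.34% of reference cells. Broad proximal diff (c17) made up 12.4% ± 2.95 against 6.86%, and Proximal tubule (c18) 11.7% ± 1.93 against 10.8%. These were followed by NPC (c25) at 10.96% ± 6.84, Cap mesenchyme (c30), the progenitors that cap the ureteric bud tips, at 8.75% ± 5.59, c24 at 7.60% ± 2.40 and Differentiated NPC (c19) at 6.50% ± 4.25. Of these 7 names, c26, c17 and c24 exceeded their reference share in 5 of 5 libraries, c30 in 4 and the other 3 in 3. The most frequent name for a single right cell was c25 for 28 of 174, c26 for 24 and c17 for 22, with 36 ties.

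By class, the neighbours of the right patch were closer to the make-up of the library than those of the left in 5 of 5 libraries. The part of the neighbours that would have to change class to match the reference cells was 21.3% ± 4.62 on the right and 37.03% ± 11.9 on the left (SD, n = 5). Stroma made up 29.9% ± 4.77 against 21.5% of reference cells, tubule 20.1% ± 3.84 against 27.8%, early nephron 20.03% ± 5.95 against 15.3%, progenitors 19.7% ± 8.90 against 16.4% and collecting duct 6.35% ± 3.90 against 7.04%. Tubule lay below its reference share in 5 of 5 libraries, and stroma and early nephron above it in 5 of 5. With phase-named clusters counted, these made up 16.2% ± 9.49 of the neighbours on the right, against 13.7% of reference cells, and 1.57% ± 1.13 on the left. In library 627 they were 32.3% of the right-hand neighbours, where they were 27.9% of reference cells.

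**Figure D5:**
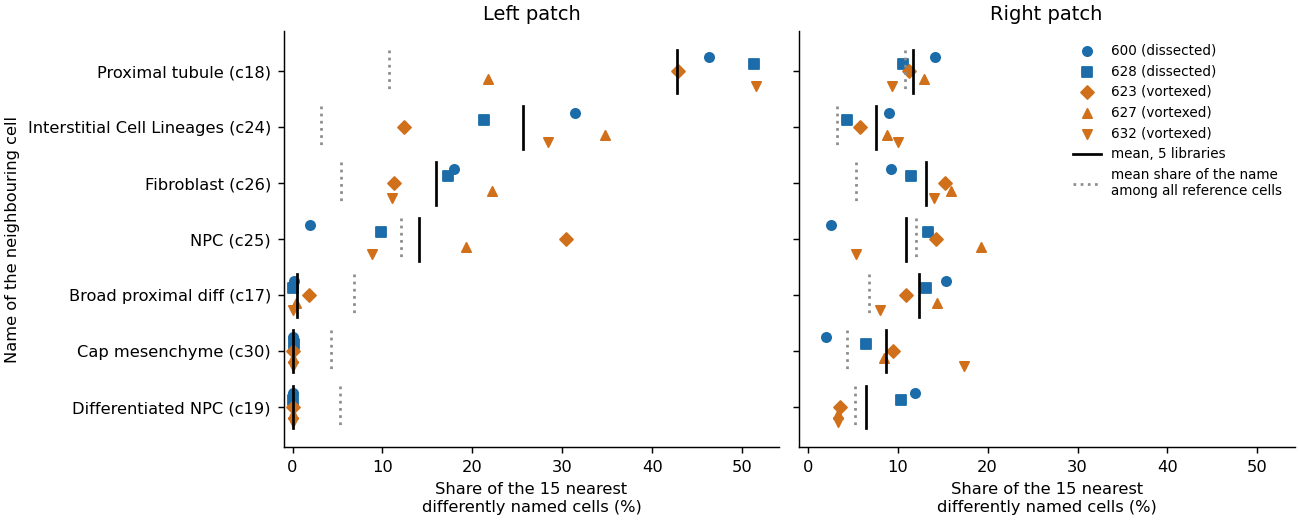
Share of named clusters among the 15 nearest differently named cells of c23, in percent, for the left and right patches, with a point for each library, a black line for the mean over the 5 libraries and a dotted line for the mean share of the name among all reference cells. Proximal tubule (c18) averages 42.8% on the left and 11.7% on the right, and Interstitial Cell Lineages (c24) 25.7% and 7.60%.

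Over all c23 cells, 45.5% ± 8.48 of the neighbours (SD, n = 5) had an epithelial name, against 56.8% of reference cells, and 38.2% ± 8.59 had a stromal name, against 21.5%. The epithelial share lay below its reference share in 4 of 5 libraries and the stromal share above it in 5 of 5. Epithelial names made up 51.6% of the neighbours in library 600, 50.3% in 628, 46.9% in 623, 30.7% in 627 and 48.2% in 632. With NPC (c25) and Cap mesenchyme (c30) also counted as epithelial, a choice made after seeing the data, the mean was 61.1%. Whether epithelial names were in the majority thus depended on the library and on how these progenitor names were counted. Position and name come from the same data, so nearness to a name is a description and not a test.

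The distance between cluster centres (medians) was compared as well. A centre need not stand for a scattered cluster. Cells more than 5 units from their own centre made up 40.6% of c26, 29.8% of c24, 29.5% of c23 and 19.9% of c18. For the whole cluster, with the cells of all libraries together, the nearest centre to that of c23 was c24, at 1.74 units, followed by c18 at 2.51 and c26 at 3.36. In libraries taken singly, c24 was the nearest in 5 of 5, at 0.943 in library 632 to 2.11 in library 600, and c18 the second in 5 of 5, while c26 was the third in none. For the left patch alone, c24 lay at 1.47, c18 at 2.78 and c26 at 3.37 over all libraries. The centre of c24 was again the nearest in 5 of 5 libraries, and c18 was the second in 4, all except library 627, where c26 was second at 2.58 and c18 lay farther away, at 3.21. For the right patch alone, the nearest centre was M-phase (c27), at 2.37 over all libraries and in libraries 628, 623 and 627, while it was c26 in library 600 and G2-M phase (c28) in library 632.

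Seen from the other clusters, c23 was most frequent beside the same names. It made up 10.5% ± 3.69 of the differently named neighbours of c24 (SD, n = 5), against 2.02% of the reference cells. It made up 8.58% ± 3.37 of those of c18, against 2.19%, and 4.52% ± 2.30 of those of c26, against 2.07%. The value for NPC (c25) was 4.29% ± 4.01, against 2.26%, with a range over libraries of 0.816% to 10.9%.

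Libraries were mixed within the patches, although not evenly. Among the 10 nearest c23 cells of any library within the left patch, the same library made up 30.1% for library 600, 29.5% for 628, 28.7% for 623 and 34.02% for 627, where the patch as a whole held 22.3%, 24.9%, 22.1% and 22.8% of such cells. For library 632 it was 5.67% against 6.89%. The centre of the left patch lay lowest in library 627, at -0.65 on the vertical axis, and highest in library 600, at 0.28, with the other 3 libraries between -0.16 and 0.19. Of the 36039 cells, 143 barcode sequences were found in more than 1 library, and 7 c23 cells carried such a barcode.

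Hand-dissected and vortexed libraries were compared. The c23 share was 1.93% ± 0.288 in the dissected libraries (n = 2) and 1.51% ± 0.0856 in the vortexed libraries (n = 3), a difference of 0.414 percentage points. The groups did not overlap, but this was true, with the higher share in the dissected libraries, of 11 of the 37 clusters, or 29.7%, and c23 was not set apart by it. In the exact permutation test over libraries, two-sided on the absolute difference, p was 0.1, the smallest that 2 libraries against 3 allow. For log2 odds of the share, fitted with limma over all 37 clusters, c23 gave 0.35 (SE 0.63, 95% interval -1.12 to 1.81, adjusted p = 0.836). In that fit 0 of the 37 clusters, or 0%, had an adjusted p under 0.05, and 5 had an unadjusted p under 0.05, of which c23 was not one. The limma error is shared among clusters, most of which varied far more than c23.

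The direction depended on the denominator and the size on a single library. Among cells with an epithelial name, the difference in the c23 share turned to -0.495 percentage points and the log2 odds ratio to -0.28 (limma adjusted p = 0.820). With all cells as the denominator, the difference was 0.211 points without library 628. Age and sequencing batch were not given for each library and cannot be told apart from the preparation.

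The mean difference between preparations had an opposite sign in the patches. The left patch made up 1.53% ± 0.202 of the dissected and 1.02% ± 0.136 of the vortexed libraries, with no overlap between the groups, a difference of 0.513 points. Of the 37 clusters, 11 (29.7%) likewise did not overlap with the higher share in the dissected libraries, so the left patch was not set apart by it. The right patch made up 0.397% ± 0.0862 and 0.496% ± 0.127, with values that overlapped, a difference of -0.099 points. As a part of c23, the right patch made up 20.5% ± 1.41 in the dissected and 32.7% ± 7.93 in the vortexed libraries, and these values did not overlap. The lowest vortexed value, 25% in library 632, rested on 10 of 40 cells. Its interval, 12.7 to 41.2, included the 21.5% of dissected library 628. None of these patch differences was tested, because the patches were drawn after their positions had been seen. Without library 627, the difference in the right patch was -0.028 points, and without library 600 it was -0.038.

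The clusters whose share followed the order of c23 most closely over the 5 libraries, B cell (c31) and Endothelial (c5), were rare ones. B cell (c31) ranked the libraries in the same order, with 0.0611% in library 623, 0.114% in library 627, 0.118% in library 632, 0.132% in library 600 and 0.142% in library 628, but it rested on 39 cells in all. Endothelial (c5), with 90 cells, came second, and differed in the order of libraries 600 and 628. The third place was shared by the larger clusters Collecting Duct (c13), Proximal tubule (c8), Thick ascending limb (c12) and Loop of Henle (c15), with 1158, 1513, 716 and 396 cells. With 5 libraries, such an order is a description only.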

How the data were processed

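Single cells were measured with 10x Genomics 3' version 3 chemistry, per the labels' protocols. The submitters' processing notes list Cell Ranger 6.0.1, Seurat and hg19, without saying what each was used for. The sources used here do not state cell filters, doublet handling, the integration method or clustering settings. The deposited table gives, per the file headers, each cell's library, the authors' cluster name and its UMAP position, a score in arbitrary units from the authors' integration of rhesus with human cells. Rows were used where the library name matched a sample title (5 libraries, 2553 to 10502 cells); 11 other library names, with 58227 rows, were not used.

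Shares have exact (Clopper-Pearson) 95% intervals, and means weight libraries equally. Preparations were compared by an exact permutation test and by limma 3.58.1 (R 4.3.3) on log2 odds with 0.5 cells added. The limma fit covered clusters of at least 10 cells, with Benjamini-Hochberg adjustment. Its code was first run on simulated shares with large planted changes, using the centred log-ratio. That run does not show how well the log2 odds fit detects changes in these data. Where nothing states separate animals, p-values measure only the spread between libraries, which may be technical. Neighbours used Python 3.11.15 with scipy 1.17.1. Epithelial names included Broad proximal diff (c17) and Differentiated NPC (c14 and c19), classed as early nephron. Progenitor names, here NPC (c25) and Cap mesenchyme (c30), were not counted as epithelial. Clusters named in the text were c23, those with at least 5% of its neighbours, the 3 nearest centres, the 3 most alike in the order of libraries and those past the threshold; the others were chosen after their values were seen. The cluster, the classes and the lists were chosen with earlier results of these data known. Alternatives covered the denominator, transform, filter, neighbours and each library left out.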

Additional observations from a re-analysis of the deposited data

Results flagged for a closer look

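Of 20 values examined over the 5 libraries, 1 stood apart from the rest by its distance to the nearest other library. Chance alone gives about 1 in 20, but many of the 20 values share cells and are not independent. In library 627, 30.7% of the differently named neighbours of c23 had an epithelial name, against a mean of 45.5% over the 5 libraries and 49.2% over the other 4. The distance to the next library was 0.774 of the whole range, where 0.710 is the limit for 5 values. The share of Proximal tubule (c18) among left-patch neighbours came close to this limit, at 0.707, with library 627 again lowest, at 21.8%. In the same library, stromal names made up 57.0% of the neighbours of the left patch, and epithelial names were 49.4% of all reference cells.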

How the results depend on the processing

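No paired analysis was possible because the preparations share no replicate number. With 1 library left out, the mean share of c23 ranged from 1.57% to 1.75%, its coefficient of variation from 8.06% to 18.98%, the difference between preparations from 0.211 to 0.618 percentage points, the limma log2 odds ratio from 0.19 to 0.50, neighbours with an epithelial name from 44.02% to 49.2%, own-name neighbours from 50.4% to 57.3%, and the right patch from 24.6% to 29.9% of c23. The mean share was 1.96% of cells outside phase-named clusters and 3.52% of cells with an epithelial name. With the latter denominator the difference between preparations turned to -0.495 points and the log2 odds ratio to -0.28. The centred log-ratio gave 0.086. The number of clusters called stayed at 0 under the 11 alternatives run. Counting the progenitor names c25 and c30 as epithelial too, an alternative chosen after seeing the data, raised epithelial neighbours to 61.1%. With 5 neighbours the own-name share was 54.7% and with 50 it was 46.3%. A patch boundary at 0 or 2, also chosen after seeing the data, left the right patch at 27.8%. Where 1 library remained in a preparation, it was assumed to vary like the others. The smallest library, with 2553 cells, limits detection to shares above 0.118%, and depth per cell is unknown.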
